A study of Mus musculus with 8 samples.

Results

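The cytosolic ribosomal proteins and the translation factors were followed through the m6A peak lists of mouse embryonic fibroblasts (MEFs). Members were the listed peaks whose gene symbol begins with Rpl, Rps, Eif or Eef, with the Rps6k kinases and the Eif4ebp binding proteins left out. They made up 272 of 38705 peaks and 81 of 9779 gene names. Of these peaks, 35 carried the name of a core ribosomal protein, 141 that of an initiation factor and 9 that of an elongation factor. Another 21 peaks belonged to the kinases of eIF2 and 9 to enzymes that modify elongation factors. The remaining 39 and 18 peaks fell on pseudogenes or retrocopies and on other proteins that share the prefix.

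N6-methyladenosine (m6A) is laid down on nascent mRNA by the METTL3–METTL14 complex, often at GGAC, and is known for its concentration in long exons and around stop codons. Ribosomal proteins build the 40S and 60S subunits, and their short, abundant mRNAs carry a 5′ terminal oligopyrimidine tract through which mTORC1 couples their translation to nutrient supply. Initiation factors bring the small subunit and the initiator tRNA to the cap and the start codon, and elongation factors carry the ribosome along the coding sequence. Starvation restrains this machinery through mTORC1, through kinases that phosphorylate eIF2 and through eEF2 kinase.

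The study sequenced MeRIP libraries, in which fragmented mRNA is enriched with an m6A antibody and compared with its own input, from wild type C57BL/6 MEFs. They were isolated at embryonic day 13.5 and used after 5 to 6 passages. Control cells were untreated, and starved cells were kept for 2 h in nutrient-deprived medium. Each condition had 2 immunoprecipitated (IP) libraries with 2 inputs, and nothing in the labels says whether replicates were separate isolations, so the p-values measure only the spread between these samples. Peaks had been called in each IP library by the authors, and the value compared here is their fold enrichment of IP over input, which is a ratio and not a transcript level. The lists held 10103 and 9871 peaks for control replicates 1 and 2 and 9757 and 8974 for starved replicates 1 and 2. Read depth is unknown, because the lists hold neither counts nor library totals. The lowest false discovery rate of any listed peak was 5.56% and the median was 18.2%, so single calls are uncertain. Of 10 fibroblast markers, 8 had a peak in some library, and 3 of them, Pdgfra, Pdgfrb and Twist1, had one in all 4 libraries. Col1a1 and Vim had none, and an absent peak says nothing of whether a transcript was present.

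Ribosomal protein mRNAs rarely carried a peak, whereas translation factor mRNAs often did. Of 77 core ribosomal protein genes, 6 and 10 had a peak in control replicates 1 and 2, and 12 and 6 in starved replicates 1 and 2. These counts are 7.79%, 13.0%, 15.6% and 7.79% of the genes. Of 53 initiation and elongation factor genes, 22, 22, 19 and 23 had a peak in the same libraries, or 41.5%, 41.5%, 35.8% and 43.4%. Over all 21951 protein-coding genes the shares were 28.1%, 27.1%, 27.1% and 25.7%, so ribosomal proteins lay below the general share and translation factors above it in every library. Those 21951 genes are all annotated ones, not filtered for expression, which the lists do not give. Genes silent in MEFs are thus counted in every share of all genes given here, and the part of expression in these differences was not tested. The translation factor share exceeded the ribosomal protein share by 29.5 percentage points on average, and by 20.3 to 35.6 points in single libraries. In an exact two-sided permutation test that changes signs over the 4 libraries, p was 0.125, the smallest value that 4 libraries allow. Taking the libraries together, 15 of 77 ribosomal protein genes (19.5%) and 35 of 53 translation factor genes (66.0%) had a peak at least once, against 42.8% of all protein-coding genes. Only 3 ribosomal protein genes (3.90%), but 10 translation factor genes (18.9%), had a peak in each of the 4 libraries, against 12.7% of all protein-coding genes.

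**Figure D1:**
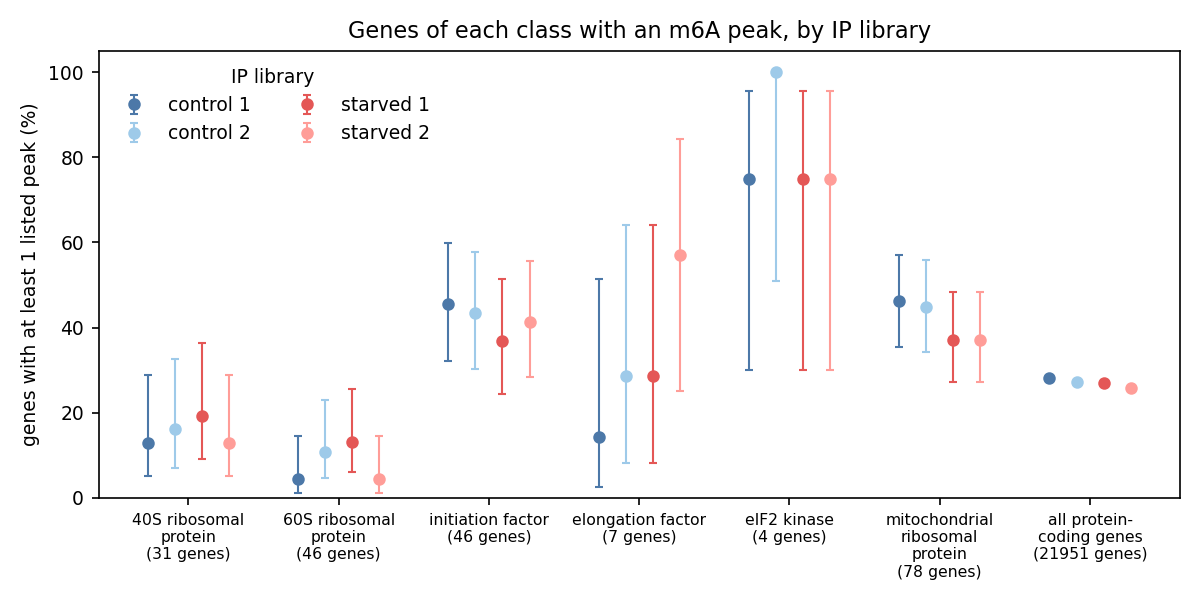
Share of genes with at least 1 listed peak (y axis, percent) in each class (x axis) for the 4 IP libraries, with bars for the 95% Wilson interval. Both ribosomal protein classes lie below 20% in every library, while initiation factors lie between 37.0% and 45.7%.

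This held for both subunits. Of 31 genes for 40S proteins, 7 had a peak in some library (22.6%), and of 46 genes for 60S proteins, 8 did (17.4%). The share was 42.8% of all protein-coding genes. In single libraries the share ranged from 12.9% to 19.4% for the 40S and from 4.35% to 13.0% for the 60S proteins. No 60S gene had a peak in all 4 libraries, where 12.7% of all protein-coding genes did. Genes without any listed peak included Rps27a, which is made as a ubiquitin fusion, and Rpl11, both of which the study also works on as proteins. Rps2 had none either, and the study found its protein co-purified with METTL3 but did not follow it further. The mitochondrial ribosomal proteins, whose genes are likewise nuclear, had a peak in 46.2%, 44.9%, 37.2% and 37.2% of 78 genes. Their share exceeded that of the cytosolic ribosomal proteins by 30.3 percentage points on average (exact permutation test over 4 libraries, two-sided, p = 0.125, the smallest possible, in a comparison added after the data were seen). The classes were not matched in length. Mitochondrial ribosomal proteins had a median spliced length of 1302 nt and a median longest exon of 588.5 nt, against 855 nt and 296 nt for cytosolic ones.

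Ribosomal protein peaks were also weaker. Control replicates 1 and 2 had a median fold enrichment of 5.64 and 5.93 over their ribosomal protein peaks, and starved replicates 1 and 2 had 5.25 and 5.93. For translation factor peaks it was 8.91 and 9.42 in control and 10.5 and 11.3 in starved cells. All listed peaks together had medians of 12.2, 12.3, 14.6 and 14.7, so translation factor peaks were stronger than ribosomal protein peaks but not stronger than the typical peak. On the log2 scale the medians of the classes differed by 0.82 on average and by 0.66 to 0.99 within single libraries (exact permutation test over 4 libraries, two-sided, p = 0.125, again the smallest possible). The comparison of peak scores ran the other way. The score is −10 times the log10 of the caller's p-value and piles up at 3100, with few values above. It stood at 3100 or more in 40% of the 35 ribosomal protein peaks, 28.7% of the 150 translation factor peaks and 21.4% of all peaks. Among peaks with a fold enrichment under 10, 6 of 25 ribosomal protein peaks reached 3100, or 24%, against 3.80% for translation factors and 1.06% for all peaks. As a class, ribosomal protein peaks were thus smaller in fold and more often at 3100, but not always the same peaks were both. Of the 10 with a fold of 10 or more, 8 reached 3100. Of the 13 lying mostly off exons of coding transcripts, 9 did, against 5 of the 22 lying mostly on them. For translation factor peaks mostly on such exons it was 43 of 146, so over any fold the ribosomal protein share was not higher there. Transcript level was not measured in the lists, and its part in these scores was not tested.

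**Figure D2:**
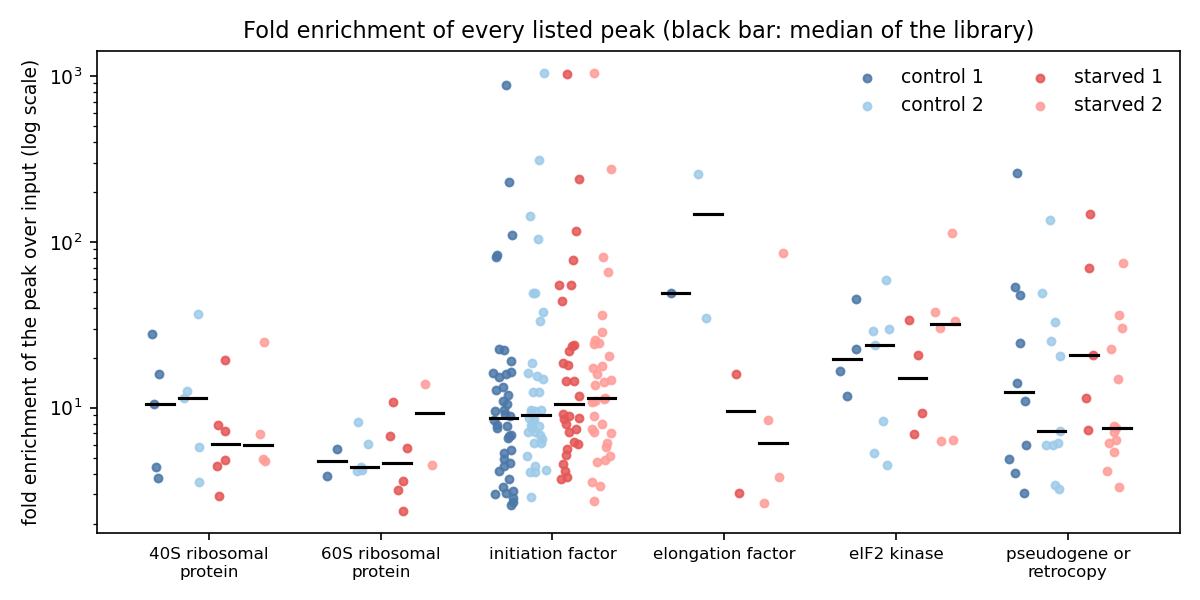
Fold enrichment over input (y axis, log scale) of every listed peak of the classes on the x axis, coloured by IP library, with the library's median as a black bar. Initiation factor peaks reach above 1000 in 3 libraries, while no ribosomal protein peak exceeds 36.65.

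The 3 ribosomal protein regions seen in all 4 libraries lay on Rps12, Rps24 and Rps6, all genes of the small subunit. The Rps12 region, chr10:23786329-23786880 (mm10, minus strand), had fold enrichments of 15.9 and 36.65 in control and 19.5 and 24.8 in starved cells. The groups overlapped. Rps24 at chr14:24493190-24494069 gave 27.9 and 12.6 in control against 7.27 and 6.95 in starved cells, and Rps6, the substrate of S6 kinase, at chr4:86854352-86854955 gave 10.5 and 11.5 against 7.88 and 4.76. In both of these, each starved value was below each control value.

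The strongest of these regions lay mostly outside the exons of coding transcripts. The Rps12 peaks had 4.08% to 24% of their length on exons of coding transcripts, apart from a weaker control peak further downstream with 34.5%, and the Rps24 peaks had 15.0% to 25.5%. The centre of the Rps12 region lay on a retained-intron transcript in each library, and so did that of Rps24 in control replicate 1. The Rps12 region contained the small nucleolar RNA gene Gm23130, and the weaker Rps12 peak covered Snora33 and Snord100. The single Rps3 peak, with a fold of 2.92 in starved replicate 1, covered Snord15b and had 35.6% of its length on coding exons. Rps6 peaks had 49.0% to 75.3% of their length on coding exons. The central 200 bases of the Rps12 region are shown because this is the strongest ribosomal protein region, in lower case from 5′ to 3′ on the transcribed strand (chr10:23786505-23786704, minus strand). Capitals would mark GGAC, and this stretch holds none.
Rps12 region centre: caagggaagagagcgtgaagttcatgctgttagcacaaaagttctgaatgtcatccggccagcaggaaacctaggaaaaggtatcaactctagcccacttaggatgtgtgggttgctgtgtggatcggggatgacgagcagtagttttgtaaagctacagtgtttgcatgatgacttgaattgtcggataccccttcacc

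Peaks that lay on the coding transcripts themselves were weak. The 22 ribosomal protein peaks with 50% or more of their length on exons of coding transcripts came from 11 genes and had a median fold of 4.65, with a highest value of 10.46 at Rps6. The 13 peaks below that share had a median of 12.6. Among translation factors, 146 of 150 peaks had 50% or more on such exons, with a median fold of 9.67. With peaks limited in this way, the difference in median log2 fold enrichment between the classes rose from 0.82 to 1.15. No ribosomal protein region was then left that had been called in all 4 libraries. For Rps6 this rested on the control replicate 2 peak, which had 49.0% of its length on such exons. The Rps6 peaks of the other libraries passed the limit.

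**Figure D3:**
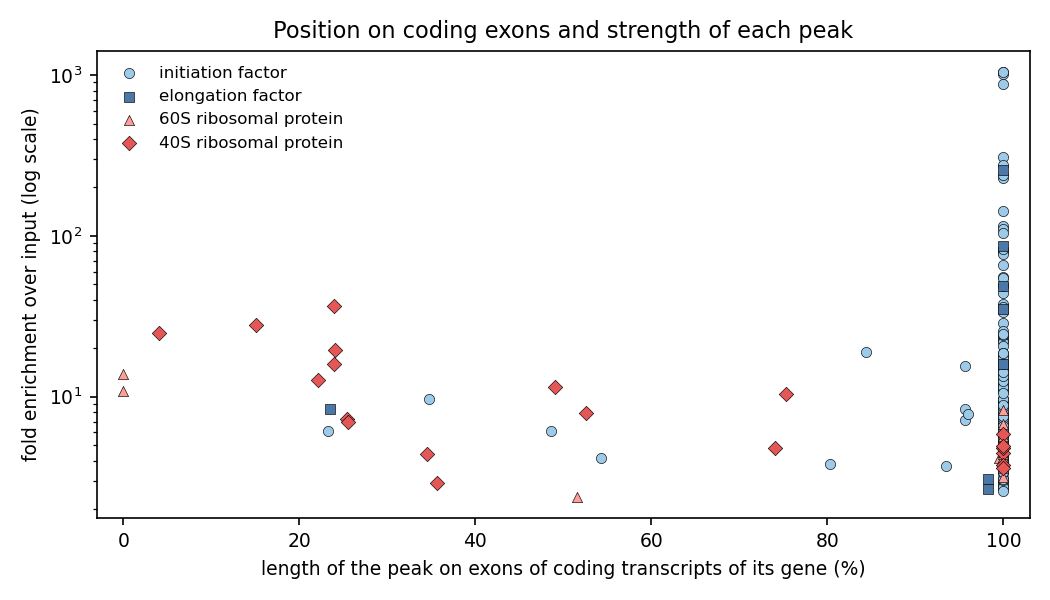
Fold enrichment (y axis, log scale) against the percent of the peak's length on exons of coding transcripts (x axis) for each ribosomal protein and translation factor peak of the 4 libraries. The ribosomal protein peaks above 12 lie left of 25%, while the strongest initiation and elongation factor peaks lie at 100%.

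The remaining 40S genes had low values. Rpsa, the laminin receptor that is also a 40S component, was called near its stop codon with a fold of 5.82 in control replicate 2 and of 4.82 and 4.91 in the starved libraries. Rps3a1 was called only in the control pair, at 3.77 and 3.58. Rps15a was called only in starved replicate 1, at 4.46. The Rps3a1 region filled an internal exon of 209 nt from edge to edge and lay wholly in coding sequence, and its sequence is shown as an example of a ribosomal protein peak that fills a coding exon (chr3:86139040-86139248, minus strand), again with GGAC in capitals and again with none.
Rps3a1 exon: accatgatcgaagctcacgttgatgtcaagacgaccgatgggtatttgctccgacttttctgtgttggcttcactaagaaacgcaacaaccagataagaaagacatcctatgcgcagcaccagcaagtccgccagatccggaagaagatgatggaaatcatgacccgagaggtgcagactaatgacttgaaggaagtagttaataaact

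Among 60S genes, Rpl5 and Rpl41 were called in 3 libraries each. Rpl5, which binds 5S rRNA, gave 5.64 and 8.22 in control and 5.69 in starved replicate 1. Rpl41, the smallest ribosomal protein, gave 3.88, 6.04 and 6.80 in the same libraries. Rpl4 had 4.41 in control replicate 2 and 3.18 in starved replicate 1, and Rpl23, which binds MDM2 when free of the ribosome, had 4.19 in control replicate 2 and 4.54 in starved replicate 2. Rpl19 (4.17), Rpl22 (3.62) and Rpl3 (2.39) were each called in 1 library. The values named Rpl29, 10.9 and 13.9 in the starved pair, came from a region on chromosome 5 at the processed pseudogene Gm13841 and not from the Rpl29 locus. BLAST found 18 further genomic copies of it, counting matches with 95% identity that cover 90% of the peak.

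Near-identical copies were common in this class. By the same criterion, 12 of 35 ribosomal protein peaks had a copy elsewhere in the genome, from Rpl19, Rpl29, Rpl41, Rps3a1 and Rps6, whereas 10 of 150 translation factor peaks did. The assignment of such reads is uncertain. A further 39 peaks were named for 19 pseudogenes or retrocopies, and 33 of these had a copy elsewhere. Rpl23a-ps1 was the strongest, with 261 and 136 in control and 74.4 in starved replicate 2. Rpl13-ps3 was called only in the starved pair, at 147 and 36.0, and Rpl13a-ps1 only in the control pair, at 53.7 and 25.2. None of the 19 regions on pseudogenes or retrocopies was called in all 4 libraries, although 8 were called in 3.

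Among the translation factors, the eIF3 scaffold carried the strongest m6A signal. Eif3a, which encodes the largest eIF3 subunit and contacts the 40S ribosome, had 5 regions in each of the 4 libraries. The region at chr19:60763065-60763264 had fold enrichments of 884 and 1044 before and 1023 and 1046 after starvation. Its neighbour at chr19:60764032-60764233 had 230 and 310 against 240 and 276. In both, the control and starved values overlapped. They filled exons 21 and 20 of 22, upstream of the stop codon, and are shown because no other region called in all 4 libraries was stronger. Capitals mark GGAC, of which each sequence has 3, and both are read on the minus strand.
Eif3a exon 21: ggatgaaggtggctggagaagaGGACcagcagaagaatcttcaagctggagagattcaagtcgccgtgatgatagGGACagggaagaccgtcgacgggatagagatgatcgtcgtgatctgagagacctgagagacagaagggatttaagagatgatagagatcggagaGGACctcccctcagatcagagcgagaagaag
Eif3a exon 20: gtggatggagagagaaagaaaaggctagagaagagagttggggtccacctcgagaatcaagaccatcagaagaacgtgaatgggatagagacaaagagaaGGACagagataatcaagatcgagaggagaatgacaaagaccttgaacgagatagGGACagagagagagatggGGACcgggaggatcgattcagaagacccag

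The other Eif3a regions were weaker and varied more. The region at the stop codon in the last exon had 81.3 and 49.4 in control and 116 and 80.7 in starved cells. Exon 19 had 16.1 and 37.8 against 55.2 and 24.1, and exon 12 had 110 and 49.0 against 77.6 and 36.2. In each of them the groups overlapped. Of 14 genes for eIF3 subunits, 9 had a peak (64.3%), against 42.8% of all protein-coding genes. Eif3b, Eif3c and Eif3j2 joined Eif3a with a peak in every library. Eif3j2 has a single exon, and a peak of it in control replicate 1 and in starved replicate 1 had a near-identical copy elsewhere in the genome. The first exon of Eif3b, a subunit next to eIF3a in the complex, gave 8.39 and 15.4 in control and 7.14 and 7.17 in starved cells, each starved value below each control value. Eif3c had 3 regions with folds from 2.74 to 5.76, none of them in all 4 libraries. No peak was listed for Eif3e, Eif3f, Eif3g, Eif3k or Eif3m.

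The cap-binding group was marked on its large scaffolds and its helicase cofactor. Eif4g1, the scaffold that joins the cap-binding protein to eIF3, had a region in exon 17 of 32 (chr16:20683418-20683654) with 82.7 and 104 in control cells against 54.9 and 66.2 in starved cells. A second region at its 3′ end (chr16:20692247-20692884) ran the other way, with 7.92 and 9.74 in control cells against 22.0 and 11.5 in starved cells. The control and starved values did not overlap in either region. Exon 23 (chr16:20686151-20686377) was called in the control pair only, at 8.91 and 14.8, and exon 9 in 3 libraries at 4.48, 8.95 and 7.04. Eif4e2, a cap-binding homologue of eIF4E, had a 3′ UTR region in all 4 libraries at 7.80 and 33.5 against 7.96 and 14.8. This region of 1419 nt was chained from several peaks. The control replicate 2 peak overlapped neither starved peak, so these values do not compare 1 site. Eif4g2, the related scaffold that lacks the eIF4E site, and the helicases Eif4a1, Eif4a2 and Eif4a3 had no listed peak.

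The paralogous scaffold Eif4g3 was called on exons that lie in the same order as those of Eif4g1. Exons 9, 17 and 23 of the 32-exon Eif4g1 transcript carried a region, and so did exons 11, 19 and 25 of the 34-exon Eif4g3 transcript, each 2 places further along. No listed peak was shorter than 200 nt, and only 5 exons of Eif4g1 and 4 of Eif4g3 have 200 nt or more. Few exons could thus hold a whole peak, and the part of exon length in the shared order was not tested. Eif4g3 also had a region at exon 27, of 173 nt, which is in none of these pairs. It stood at 19.03 in control replicate 1 only. Exon 17 of Eif4g1 and exon 19 of Eif4g3 are both 237 nt long, are 77.2% identical and were each filled from edge to edge by the region. Eif4g3 exon 19 was nevertheless weaker, at 16.4 and 8.16 in the control pair, and was not called in starved cells. Matches were sought only among exons of similar length, so the like lengths of the other pairs (813 and 825 nt, 227 and 218 nt) were set in advance. These pairs hardly matched in sequence, with 50.5% and 56.8% identity, close to the 51.5% of the best match of either Eif4g1 exon 17 or 23 in Eif4g2. The same search paired the last Eif4g1 exon with exon 11 of Eif4g3, at 41.5% identity. Eif4g3 had a region at its own 3′ end, at 13.35 and 12.47 in control cells and 7.4 in starved replicate 2. Exons 11 and 25 of Eif4g3 were each called in 3 libraries, with folds of 8.66 to 20.6 and of 5.15 to 7.10. The matched exons are shown side by side on the plus strand (chr16:20683418-20683654 and chr4:138171055-138171291), GGAC in capitals, 3 in each.
Eif4g1 exon 17: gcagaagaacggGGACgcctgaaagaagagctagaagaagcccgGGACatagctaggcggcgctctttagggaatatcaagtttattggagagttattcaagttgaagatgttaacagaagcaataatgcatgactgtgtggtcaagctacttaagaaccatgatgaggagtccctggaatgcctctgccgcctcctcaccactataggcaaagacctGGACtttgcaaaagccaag
Eif4g3 exon 19: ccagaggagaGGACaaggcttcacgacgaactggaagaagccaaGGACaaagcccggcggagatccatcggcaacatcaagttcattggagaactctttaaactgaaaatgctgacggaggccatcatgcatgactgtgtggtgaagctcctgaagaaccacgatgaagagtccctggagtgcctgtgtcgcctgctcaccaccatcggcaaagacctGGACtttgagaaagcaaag

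Eif4b, which stimulates the eIF4A helicase, had the largest mean difference between the groups among the 13 translation factor regions called in all 4 libraries. Its exon 11 of 15 (chr15:102092986-102093199, plus strand) gave 5.36 and 8.72 in control and 23.4 and 17.9 in starved cells, a mean difference of 1.58 on the log2 scale. Both starved values were above both control values. Eif5b, the GTPase that joins the subunits, had a region in exon 4 at 15.4 and 16.3 in control and 24.03 and 24.5 in starved cells. A region near the Eif5b stop codon was called in the starved pair only, at 18.7 and 14.3, and another in control replicate 2 only, at 142. The Eif4b exon is printed because it separated the groups. Capitals would mark GGAC, and it holds none.
Eif4b exon 11: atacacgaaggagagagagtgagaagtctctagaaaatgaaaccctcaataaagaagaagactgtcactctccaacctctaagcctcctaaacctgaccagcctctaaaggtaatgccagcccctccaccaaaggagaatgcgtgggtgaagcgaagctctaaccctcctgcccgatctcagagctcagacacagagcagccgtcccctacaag

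**Figure D4:**
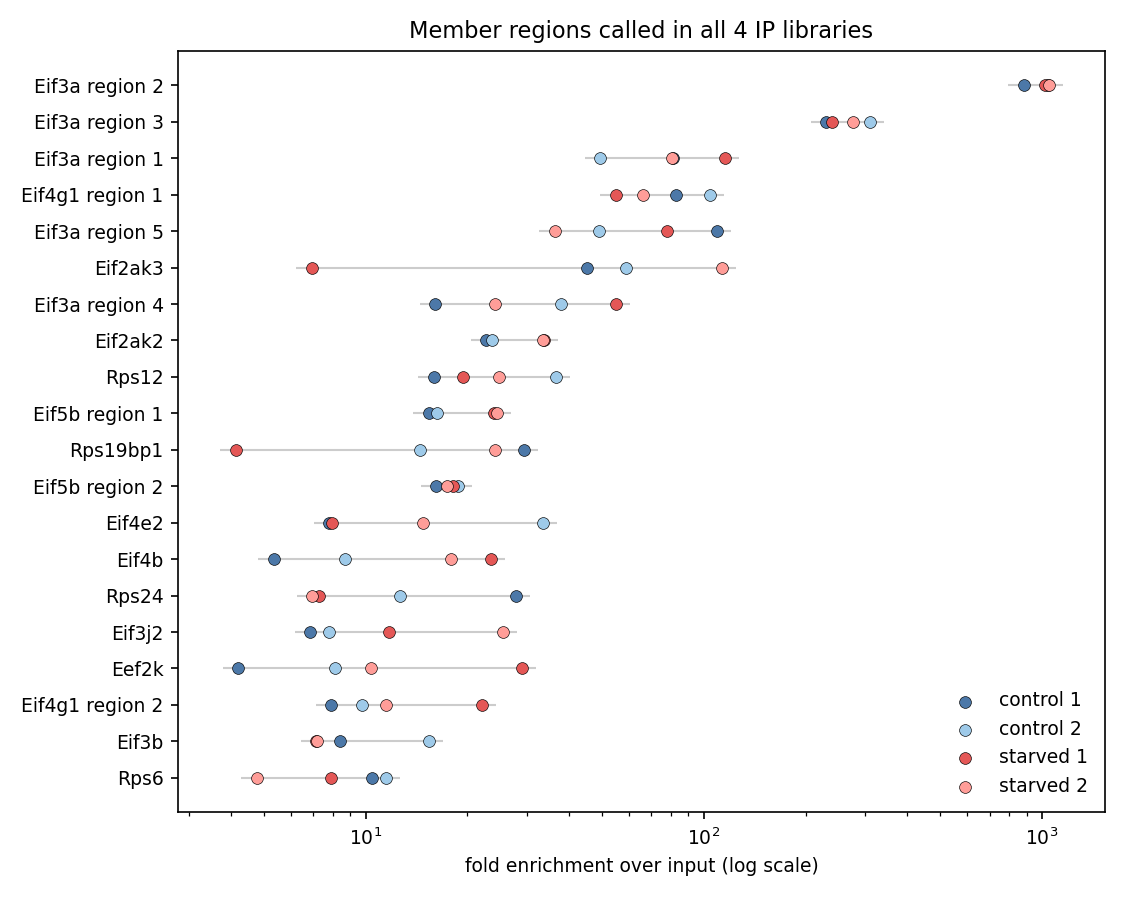
Fold enrichment over input (x axis, log scale) of the 20 member regions called in all 4 IP libraries (y axis), each point 1 library. Regions of 1 gene are numbered by genome position. Eif3a regions 2 and 3 stand at 230 or more in every library, and the control and starved points of Eif4b, Eif2ak2 and Eef2k do not overlap.

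No gene of the eIF2, eIF2B and eIF1 groups had a peak in every library, where 12.7% of all protein-coding genes did. Of 9 genes for eIF2 and eIF2B subunits, 7 had a peak (77.8%), against 42.8% of all protein-coding genes. Eif2s1, the subunit whose phosphorylation stops initiation, was called in control replicate 1 only, at 3.13. Eif2b2 of the exchange factor eIF2B was called in 3 libraries, at 22.6, 12.5 and 3.58, and Eif2b3 only in starved replicate 1, at 44.2. Eif1ax (2.71 and 2.88), Eif1b (12.0 and 4.07) and Eif3h (3.03 and 9.29) each had a region called in the control pair only, as did 1 region of Eif3l (2.58 and 6.82). Eif1a was called in 3 libraries, at 11.0 in control replicate 1 and at 7.48 and 28.75 in starved cells.

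Among 7 elongation factor genes, 5 had a peak (71.4%), against 42.8% of all protein-coding genes. Eefsec alone had one in each of the 4 libraries, as did 12.7% of all protein-coding genes. Eefsec, which delivers selenocysteinyl-tRNA, had a region at chr6:88376204-88376411 with 48.9 and 257 in control and 86.1 in starved replicate 2, and another at 16.0 in starved replicate 1. Eef2, the translocase, was called in the starved pair only, with the low values of 3.06 and 2.66. Eef1a2 (34.9), Eef1b2 (3.81) and Eef1d (8.42) were each called in 1 library. Eef1a1 and Eef1g had no listed peak.

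All 4 genes for the eIF2 kinases carried peaks in some library, where 42.8% of all protein-coding genes did. Their transcripts are long, and of all genes with transcripts of 4000 nt or more 63.8% had a peak. Eif2ak2, the kinase PKR that senses double-stranded RNA, had a 3′ UTR region at 22.7 and 23.7 in control and 33.65 and 33.4 in starved cells, both starved values above both control values. That region of 2693 nt was chained from 8 peaks, so its values may come from different sites. Eif2ak3, the kinase PERK of the endoplasmic reticulum, gave 45.1 and 58.8 in control but 6.94 and 113 in starved cells, so the starved values lay on both sides of the control values. Eif2ak4, the amino acid sensor GCN2, was called in 2 libraries, with a shared region at 29.2 in control replicate 2 and 20.9 in starved replicate 1. Eif2ak1, the heme-regulated kinase, had a region in its last exon in 3 libraries, at 11.7, 4.51 and 37.8.

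Of 6 enzymes that modify elongation factors, Eef2k and Eef2kmt had peaks (33.3%, against 42.8% of all protein-coding genes). Exon 10 of Eef2k, the kinase that halts elongation by phosphorylating eEF2, gave 4.21 and 8.11 in control and 28.9 and 10.4 in starved cells (chr7:120886586-120886787, plus strand), both starved values above both control values. Its mean difference was 1.57 on the log2 scale. The control replicate 1 peak had a false discovery rate of 81.9%. Control replicate 2 alone had 3 more Eef2k regions, 1 of them at 98.0. The exon is shown for comparison with Eif4b, and it holds 3 GGAC motifs.
Eef2k exon 10: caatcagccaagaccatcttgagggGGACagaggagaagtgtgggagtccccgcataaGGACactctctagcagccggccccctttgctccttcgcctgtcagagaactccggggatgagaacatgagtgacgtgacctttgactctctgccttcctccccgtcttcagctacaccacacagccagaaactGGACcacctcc

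A further 6 gene names belonged to proteins that share the prefix but are no core ribosomal proteins or factors. Rps19bp1, which binds RPS19 and activates SIRT1, had a region over its stop codon and 3′ UTR with 29.3 and 14.5 in control and with 4.13 and 24.1 after starvation, so the groups overlapped. Rpl7l1, a ribosome assembly protein, was called in 3 libraries at 40.2, 18.98 and 105.5 in 1 region of its 3′ UTR, and Rpl22l1, the paralogue of Rpl22, in 3 libraries at 22.5, 10.3 and 3.89. The 18 peaks of these proteins had a median fold of 12.5, against 5.69 for the 35 ribosomal protein peaks, a difference that was not tested.

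Among other initiation factor genes, Eif2a was called in 3 libraries at 7.15, 6.20 and 7.94, Eif6, which keeps free 60S subunits apart from the 40S, in 3 libraries with folds from 6.59 to 15.9, and Eif4e, the cap-binding protein itself, in control replicate 1 only at 3.74.

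Between control and starved cells, ribosomal protein peaks and the shares of genes with a peak overlapped, whereas the number and the median fold of translation factor peaks did not. Ribosomal protein genes with a peak made up 10.4% ± 3.67 (SD, n = 2) in control and 11.7% ± 5.51 (SD, n = 2) in starved cells. The exact permutation test over the libraries (2 against 2, two-sided) gave p = 1. Translation factor genes with a peak made up 41.5% in both control libraries and 39.6% ± 5.34 (SD, n = 2) in starved cells, with p = 1 in the same exact test. The number of translation factor peaks was 43 and 38 in control and 32 and 37 in starved cells, a difference of −6 peaks with exact p = 0.333, the smallest that 2 against 2 allows. With the same number of peaks taken from each library that difference was −2 (exact permutation p = 1). The median log2 fold enrichment of translation factor peaks was higher in starved cells by 0.24 (exact permutation p = 0.333), and that of ribosomal protein peaks was lower by 0.06 (exact permutation p = 0.667). The medians of all listed peaks were also higher in the starved libraries than in the control libraries, so the translation factor difference ran with that of the lists.

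Overlapping peaks of the 4 lists were merged into regions, and a region's value in a library is its highest fold enrichment there. Overlaps were chained, so a wide region can hold peaks that do not overlap each other. The regions of Eif4e2 (1419 nt), Eif2ak2 (2693 nt) and Eif3j2 (2359 nt) did, and their values may come from different sites. Of 67 translation factor regions, 13 were called in all 4 libraries (19.4%), and of 16 ribosomal protein regions 3 were (18.75%), against 10.7% of all 21168 regions. Regions called in 1 library made up 35.8% and 37.5% of these classes and 56.2% of all regions. The control pair alone held 6 translation factor regions (8.96%) and 1 ribosomal protein region, against 4.15% of all regions. The starved pair alone held 2 translation factor regions (2.99%) and 1 ribosomal protein region, the Rpl29 pseudogene site, against 3.2% of all regions. Of the 20 member regions in all 4 libraries, 6 had both starved values above both control values and 4 had both below. That is 30% and 20%, where 22.9% and 18% of all 2257 such regions were so ordered. The 6 higher regions were those of Eif2ak2, Eef2k, Eif3j2 (6.85 and 7.82 against 11.7 and 25.5), Eif4b, the 3′ end of Eif4g1 and exon 4 of Eif5b. The 4 lower regions were those of Rps24, Rps6, Eif3b and exon 17 of Eif4g1. The member shares lay near those of all regions.

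Placed on coding transcripts, the classes differed in where their peaks lay. Of 147 placed translation factor peaks, 20.4% had their centre within 100 nt of the stop codon, 51.7% elsewhere in the coding sequence, 23.8% in the 3′ UTR and 4.08% in the 5′ UTR. Of 26 placed ribosomal protein peaks, 20 lay within 100 nt of the stop codon (76.9%), 5 in the coding sequence and 1 in the 3′ UTR. These pooled counts hold the same site again for each library that called it, and some peaks, as at Rps24, lay mostly off coding exons. In single libraries the stop codon window held 75% to 80% of placed ribosomal protein peaks and 15.6% to 25.7% of translation factor peaks. That window takes up 17.8% of the length of the ribosomal protein transcripts concerned and 6.46% of the translation factor transcripts. Over all listed peaks it held 12.7% of the centres. In 9 of the 35 ribosomal protein peaks the centre lay on no coding transcript of the gene, and 6 of these lay only on retained-intron or processed transcripts.

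The GGAC core did not set translation factor peaks apart. GGAC stood on the transcribed strand in the 200-nt window around 60.5% of translation factor peak centres, and in 61.7% of all possible windows along the same transcripts. For all listed peaks the shares were 63.7% and 55.4%. For ribosomal proteins, 11 of 26 windows held it, or 42.3%, against 56.5% of windows along the same transcripts. A match is a description of the sequence and does not mark a methylated base.

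Transcript structure differed strongly between the classes. The median spliced length was 855 nt for ribosomal proteins and 2165 nt for translation factors, against 2540.5 nt for all protein-coding genes. The median longest exon was 296 nt and 626 nt. Every list held no peak shorter than 200 nt, and 2.46% of all placed peaks had their centre in an exon below that length. Among ribosomal protein peaks 5 of 26 did (19.2%), and among translation factor peaks 2.72% did. Peak ends coincided with both ends of an exon in 39.5% of placed translation factor peaks and in 11.9% of all placed peaks, as in the exons printed above. An exon of at least 200 nt was present in 55 of 77 ribosomal protein genes, 46 of 53 translation factor genes and 97.5% of all genes. Within those genes, 13 ribosomal protein genes (23.6%) and 33 translation factor genes (71.7%) had a peak in some library. The difference between the classes was thus as large among genes with such an exon, at 32.5 percentage points on average over the libraries.

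Among transcripts of like length the gap was smaller. Ribosomal protein genes with a peak had a median length of 1351 nt, against 831.5 nt for those without. Translation factor genes with a peak had a median of 2554 nt, against 1641.5 nt. Among genes with a spliced transcript of 1000 nt or more but under 2000 nt, 6 of 20 ribosomal proteins and 10 of 21 translation factors had a peak, compared with 29.5% of all genes of that length. Below 1000 nt, 6 of 52 ribosomal proteins did (11.5%), close to the 12.5% of all 2816 such genes, whereas 16 of 25 mitochondrial ribosomal proteins did (64%). The 2816 genes were not filtered for expression either. Restricted to transcripts below 2000 nt, the difference between translation factors and ribosomal proteins was 11.7 percentage points, lower than the 29.5 points over all lengths, and the difference in median log2 fold enrichment was 0.36 (exact permutation test over 4 libraries, p = 0.25, above the smallest possible). These sets still differed in length, with 52 of 72 ribosomal proteins but 2 of 23 translation factors under 1000 nt. Per kb of spliced transcript, translation factors had 0.297, 0.262, 0.221 and 0.255 peaks and ribosomal proteins 0.0877, 0.125, 0.150 and 0.0752 in the 4 libraries. Divided by the kb in exons of 200 nt or more, the same peaks gave 0.494, 0.436, 0.367 and 0.425 against 0.170, 0.242, 0.291 and 0.145. All genes had 0.198, 0.193, 0.191 and 0.176 by that measure. By it, ribosomal proteins were below all genes in control replicate 1 and starved replicate 2, and above them in control replicate 2 and starved replicate 1. However, the measure also counts peaks outside such exons. Shorter exons held the centre of 19.2% of placed ribosomal protein peaks but of 2.46% of all placed peaks. The ribosomal protein values are thus raised more than those of all genes, and the order of the 2 cannot be read from them.

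**Figure D5:**
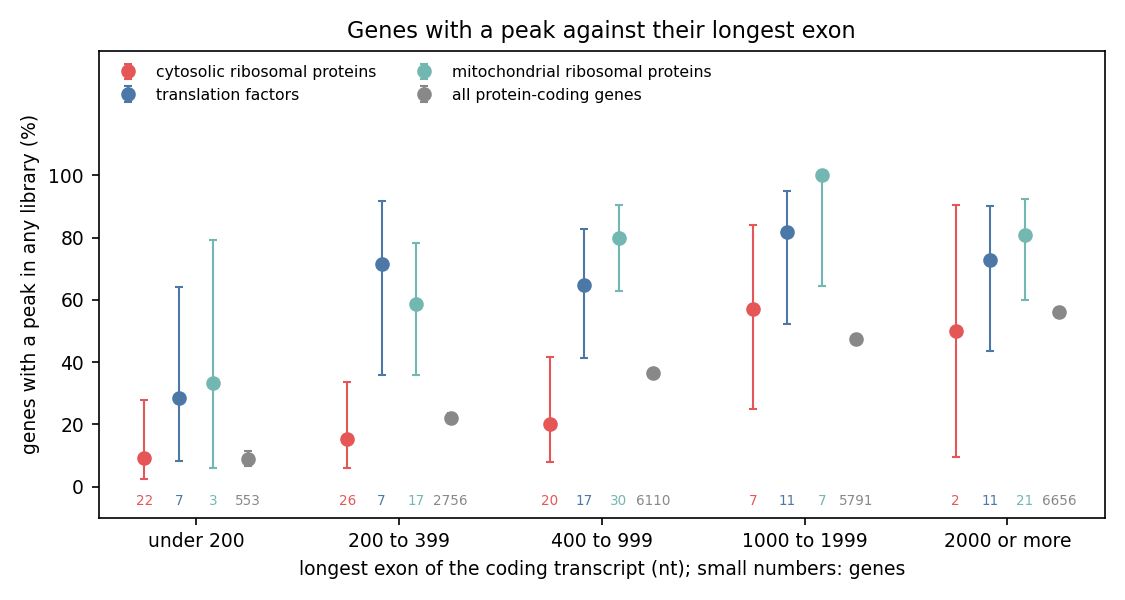
Share of genes with a peak in any library (y axis, percent, with 95% Wilson intervals) by the longest exon of the coding transcript (x axis, nt), with the number of genes in each bin below. Cytosolic ribosomal proteins with a longest exon of 200 nt or more but under 400 nt stand at 15.4%, below translation factors at 71.4% and mitochondrial ribosomal proteins at 58.8%.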

How the data were processed

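Per the labels and the study's methods, MeRIP-seq used an m6A antibody on mRNA from MEFs and a directional library kit. The authors trimmed reads with Cutadapt, mapped them to mm10 with HISAT2 (version 2.0.4) and called peaks in each IP library against its input with MACS2, keeping peaks that overlap mRNA exons. The deposited lists give, for each peak, the fold enrichment (a ratio over input), the score (−10·log10 of the p-value) and the false discovery rate in percent. These columns are in the style of the earlier MACS, although the methods name MACS2, so the exact definition of the rate and score is uncertain. A further table of the authors' own starved-to-control comparisons was not used.

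Peaks were joined to GENCODE M21 genes by the Ensembl identifier in the list, or else by symbol. Share of genes, number of peaks and median log2 fold enrichment were computed for each IP library. The classes were compared by exact two-sided sign-change permutation over 4 libraries and the conditions by exact two-sided permutation of 2 against 2. Peaks overlapping by at least 1 bp were merged into regions. Sequences were read from the RefSeq copy of GRCm38 (mm10). The transcript with the longest coding sequence gave segments and lengths, and copies were sought with blastn (version 2.17.0). Genes were named by rule: every ribosomal protein gene with a peak, every factor region in all 4 libraries or in 1 condition's pair only, eIF2 kinases, modifying enzymes, and the members the study examined or detected as proteins. 1 of the factor regions that this rule covers is not reported here. Other regions of the same genes, other factors, other genes without a peak, proteins that share the prefix and the pseudogenes were named after their values were seen. The members and lists were chosen with earlier results of these data known. The lists give no counts, so precision rests on the number of libraries. Wilson intervals (95%) cover counting error only. Statistics were tested on simulated data. The processing alternatives are given in the closing section.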

Additional observations from a re-analysis of the deposited data

How the results depend on the processing

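The ribosomal protein and translation factor shares kept their order under the following alternatives: only peaks of fold 4 or more (26.6 percentage points), equal numbers of peaks per library (27.7), centre in an exon (30.5), all genes with the prefixes (29.2), and leaving out each library (27.5 to 32.6). The median log2 difference stayed between 0.74 and 0.98, including with the mean in place of the median. Of the alternatives chosen after seeing the data, transcripts under 2000 nt gave 11.7 points and a log2 difference of 0.36 (exact p = 0.25). All listed peaks had a false discovery rate above 5%, and read depth is unknown.

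The starved-against-control differences in the number and the median fold of translation factor peaks kept their sign in each alternative run (without single libraries -8.5 to -3.5 peaks and 0.18 to 0.30 log2), but not their size: equal numbers of peaks gave -2 peaks (exact p = 1), and the log2 difference of 0.24 became 0.17 with means (exact p = 0.667), 0.50 with fold 4 or more, 0.36 on coding exons and 0.66 in transcripts under 2000 nt. The others were small and changed sign. For the number of ribosomal protein peaks the difference fell to 0 with fold 4 or more, with equal numbers of peaks, with centres in exons, and, as added after seeing the data, with peaks at least 0.5 on coding exons or transcripts under 2000 nt. Leaving out control replicate 1 or starved replicate 1 turned the sign, and single libraries left out gave -2.5 to 3.5 peaks. The ribosomal protein share difference was 0 with all prefixed genes and with peaks on coding exons, and -2.60 to 5.19 percentage points without single libraries. The translation factor share difference turned to 1.89 percentage points with equal numbers of peaks and ranged from -5.66 to 1.89 without single libraries. The ribosomal protein median log2 difference turned to 0.0487 on coding exons and 0.00518 in transcripts under 2000 nt, and ranged from -0.143 to 0.0146 without single libraries. Control-pair regions of ribosomal proteins fell to 0 with fold 4 or more and with equal numbers, and those of translation factors to 2 with equal numbers. On coding exons, ribosomal protein regions in all 4 libraries and in the starved pair fell to 0, and member regions lower after starvation to 2. With the longest transcript, 66.0% of ribosomal protein peaks lay at the stop codon and 13.7% in the 3′ UTR (76.9% and 2.78% as means over libraries before). In 100-bp windows, 40.2% of translation factor peaks held GGAC. The cause of these shifts was not tested.

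With the replicate number as a replicate block, the differences equalled those given (for translation factor peaks −6), and only 2 pairs exist, so no p below 0.5 can be reached. The samples share only a number.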
